A study of Saccharomyces cerevisiae with 6 samples.

Results

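Domain IV of 25S, the large rRNA of the 60S ribosomal subunit of Saccharomyces cerevisiae, was taken as nucleotides 1881 to 2400 of 25S. These are nucleotides 5132 to 5651 of the 35S pre-rRNA, from which the mature rRNAs are cut, so the domain holds 520 of its 6858 nucleotides. They were chosen by position alone, and position 1 is the first nucleotide of 25S. Genome coordinates are not printed because the sources used here name no build for the deposited annotation.

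The study mapped flexible nucleotides of the pre-rRNA by SHAPE in particles purified through TAP-tagged Mrd1, which binds the RNA of early pre-ribosomes. Its reagent 1M7 reacts with the 2′-hydroxyl where the RNA backbone can move, and the bulky product halts reverse transcription. Per the labels, 6 libraries form 3 groups of 2. In 2 groups the strain carries mrd1-deltaRDB5-TAP::K.I.TRP1 and also pGAL-HA-MRD1::URA3 in the BY4741 background, given either the solvent DMSO or 1M7. The label is read here as loss of the fifth RNA-binding domain of Mrd1 (RBD5), and the strain is called the mutant. In the other group, of the same background, GAL::3HA-ERB1::KAN is combined with MRD1-TAP::URA3 and 1M7 was given. Its labels name no deletion in Mrd1, its ERB1 gene stands behind a GAL promoter, and it is called the depleted strain. Erb1 is an assembly factor of the large subunit. The labels give no DMSO library of the depleted strain, and no group lacks both changes, so the effect of losing RBD5 and that of depleting Erb1 cannot be told apart. Cells were grown at 30 °C in YPD or YPG/R, and the labels do not say which medium served which sample.

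Domain IV lies at the face of the large subunit that meets the small subunit. Its helix H69 reaches across to the decoding centre as an intersubunit bridge, H68 and H71 pack beside it, and the expansion segment ES27L, a eukaryote-specific insertion, projects from the domain as a long arm that moves on the surface of the mature ribosome. Many of its residues receive 2′-O-methyl groups or become pseudouridines, guided by small nucleolar RNAs, and a few bases are methylated by protein enzymes.

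The sequences the results turn on are given 5′ to 3′ as the deposited sheet holds them, with capitals for nucleotides that were modified in both strains and lower case for all others. A nucleotide is called modified where the authors' BUM_HMM model gave it a posterior probability of modification of at least 0.95. The hairpins were predicted with RNAfold from the domain's sequence alone, without proteins or the rest of the transcript, and are not the accepted structure. A hairpin carries a helix name only where it holds residues known to be modified in that helix. Its predicted ends need not be those of the accepted helix. The first 3 hairpins have no capital letter, and the last lies in the most densely modified stretch of the domain.
Hairpin 1, 1899 to 1926: gaagucggcaaaauagauccguaacuuc
Hairpin 2, 1963 to 2059: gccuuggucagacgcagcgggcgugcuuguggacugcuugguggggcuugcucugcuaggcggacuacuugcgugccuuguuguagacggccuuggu
Hairpin 3, 2061 to 2075: ggucucuuguagacc
Hairpin 4, 2150 to 2186: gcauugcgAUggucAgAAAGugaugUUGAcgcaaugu
H68, 2193 to 2242: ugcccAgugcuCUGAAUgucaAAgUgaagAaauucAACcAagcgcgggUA
H69, 2246 through C2278: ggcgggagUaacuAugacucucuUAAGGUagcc
H71, 2281 to 2310: augccucgucaucuAAuUAgugacgcgcaU
Hairpin 8, 2349 to 2397: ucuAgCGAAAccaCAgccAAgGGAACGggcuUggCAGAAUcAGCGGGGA

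In the mutant 115 of the 520 nucleotides were modified (22.1%, 95% Wilson interval 18.8% to 25.9%), beside 18.5% of all nucleotides of the transcript with a posterior. In the depleted strain 111 were modified (21.3%, interval 18.04% to 25.1%), beside 21.1% over the transcript. The share of the depleted strain is close to that of the whole pre-rRNA, and that of the mutant lies above it. The intervals count each nucleotide as an independent draw and leave out any spread between libraries. The sheet has 1 value per nucleotide and strain, with the libraries of a strain pooled and no read numbers, so there is no replicate error, the depth is unknown and no difference below was tested. Of the 520 nucleotides, 89 were modified in both strains, 26 in the mutant alone, 22 in the depleted strain alone and 383 in neither. Raw scores were present for all 520 nucleotides in the mutant and for 517 in the depleted strain. The absent ones, U1997, U2014 and G2017, all lie in hairpin 2.

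The normalized reactivity is a score that is 0 for the least reactive nucleotides and has no upper bound. Its mean over the domain was 0.160 in the mutant and 0.152 in the depleted strain. Over the other 2876 nucleotides of 25S the means were 0.204 and 0.238. By this score, with negatives set to 0, the domain was less reactive on average than the rest of 25S in both strains. Its shares of modified nucleotides were no lower than the 18.7% and 21.1% found there. In the mutant the raw scores, negatives kept, had nearly equal means of −0.0117 in the domain and −0.0112 in the rest of 25S. In the depleted strain the raw means were −0.0266 and −0.00777. The 520 nucleotides just upstream had normalized means of 0.130 in the mutant and 0.162 in the depleted strain, with 16.0% and 16.3% modified. The 520 just downstream had means of 0.261 and 0.237, with 19.4% and 18.5% modified.

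**Figure D1:**
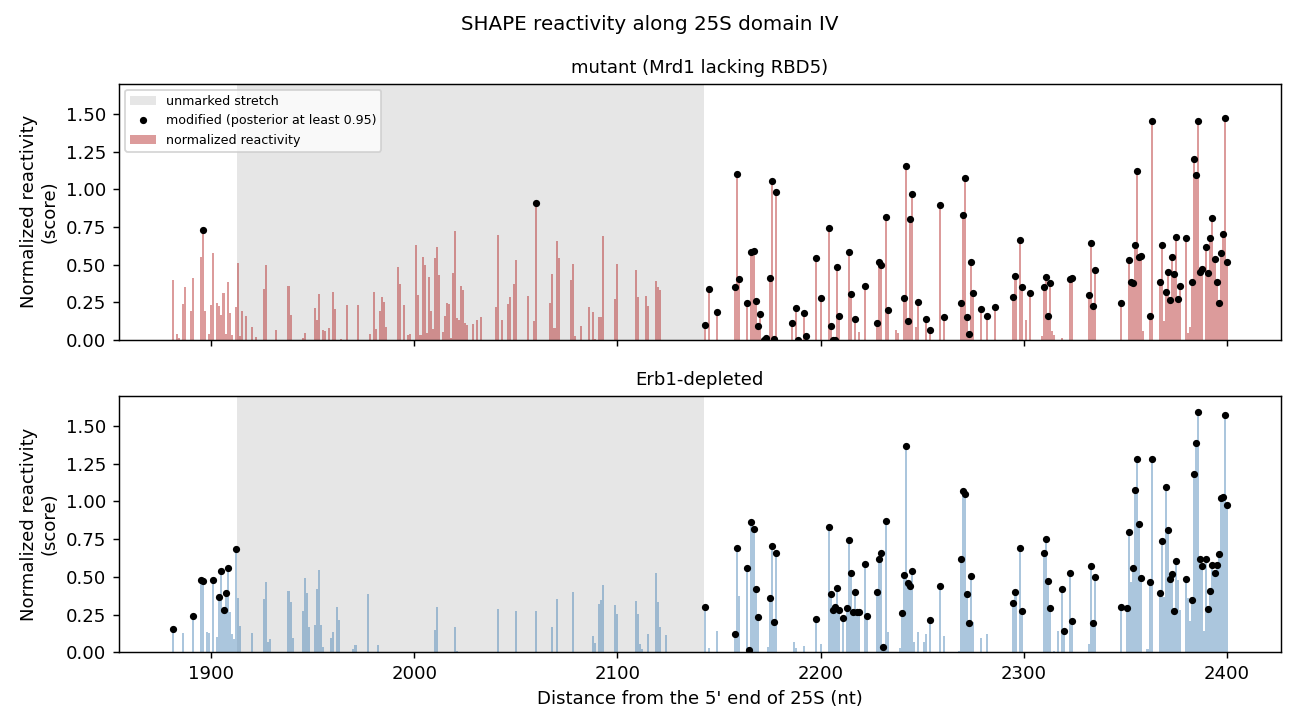
Normalized SHAPE reactivity (score, vertical axis) of each nucleotide of domain IV against its distance in nt from the 5′ end of 25S, with the mutant above and the depleted strain below; bars are single nucleotides, black dots mark those modified at a posterior of at least 0.95, and grey shading marks 1913 through A2142. The shaded stretch has 1 dot in the mutant and 0 in the depleted strain, and the tallest bars lie near the 3′ end.

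Modified nucleotides were unevenly spread along the domain. The longest runs without a modified nucleotide in either strain were 1913 to 2059 (147 nt) and 2061 through A2142 (82 nt), parted only by A2060. Together with A2060 they form a stretch of 230 nt, called the unmarked stretch here. It was marked out from these same posteriors, so its low count is how it was chosen and not a finding. In it 1 nucleotide was modified in the mutant and 0 in the depleted strain. The 258 nucleotides after it held 113 modified ones in the mutant (43.8%) and 100 in the depleted strain (38.8%), of which 88 were shared. The next longest run without a modified nucleotide, 2336 to 2347 (12 nt), had a normalized reactivity of 0 at all 12 positions in both strains.

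The unmarked stretch takes in the long hairpin 2, which is read as the arm of ES27L from its place in the domain and not from a listed residue. It differs in base composition from the rest of the domain. Adenosines made up 19.6% of it and 32.4% of the domain outside it, and its G and C content was 53.0%. Adenosine was the base most often modified, in the domain as in the transcript. Of the 139 adenosines of the domain, 41.0% were modified in the mutant and 39.6% in the depleted strain, beside 34.7% and 38.2% of adenosines in the transcript. Of the 126 uridines the shares were 18.3% and 15.1%, and of the 150 guanosines 16.0% and 16.7%. Cytidine was the least often modified base, with 10.5% and 11.4% of 105, and over the transcript 6.63% and 5.69%.

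Reactivity in the unmarked stretch was lower on average than in the other 290 nucleotides of the domain. The stretch was chosen to lack modified nucleotides, and outside it nearly all high scores were modified. That choice therefore favoured low scores, and the values that follow are a description. In the mutant it averaged 0.113 in the stretch and 0.198 outside it, with 130 and 146 nucleotides at 0. In the depleted strain the means were 0.0554 and 0.229, with 174 and 142 at 0. The stretch nevertheless held single reactive nucleotides. A normalized reactivity of at least 0.5 was reached by 14 of its nucleotides in the mutant (6.09%), and by 43 in the rest of the domain (14.8%). Of the 14, 1 was modified, a count that the choice of the stretch by its posteriors fixed. Of the 43, 41 were modified (95.3%). Over the whole transcript 70.8% of 1284 such nucleotides of the mutant were modified. In the depleted strain 2 nucleotides of the stretch reached 0.5, and 53 of the rest of the domain did, all 53 modified, beside 72.9% of 1445 over the transcript.

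The most reactive nucleotides of the stretch are given as a description, since the choice of the stretch set their posteriors below the threshold at all but A2060. A2020 in the outer part of hairpin 2 had a normalized reactivity of 0.722 in the mutant with a posterior of 0.0882, and 0.165 in the depleted strain. A2093 stood at 0.687 in the mutant with a posterior of 0.0339, and at 0.449 in the depleted strain. U2041 at 0.695 and U2070 at 0.658 came nearest to the threshold from below, with posteriors of 0.871 and 0.891. A2060, the lone modified nucleotide, sits between hairpins 2 and 3 at 0.911 in the mutant and 0.274 in the depleted strain, where it was not modified. After the stretch 4 nucleotides (A2172, U2189, G2206 and A2207) were modified in the mutant at a normalized reactivity of 0. In the domain 7 modified nucleotides of the mutant had posteriors from 0.95 to 0.99 and 1 unmodified one lay from 0.9 to 0.95. For the depleted strain these numbers were 4 and 4. How the posteriors relate to the scores was not tested.

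**Figure D2:**
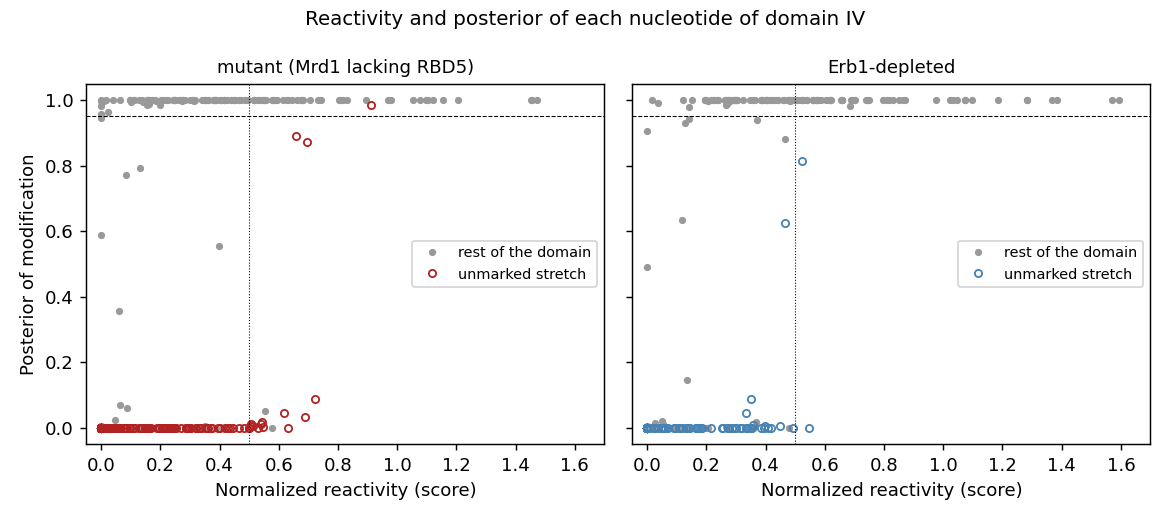
Posterior of modification (vertical axis) against normalized reactivity (score, horizontal axis) for each nucleotide of domain IV, with open circles for the unmarked stretch and grey dots for the rest of the domain; the dashed line is the posterior of 0.95 and the dotted line a reactivity of 0.5. Right of the dotted line lie 14 circles and 43 grey dots of the mutant, and 2 circles and 53 grey dots of the depleted strain; that circles lie below the dashed line follows from how the stretch was chosen.

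Before the unmarked stretch lie 32 nucleotides, 1881 to 1912, whose posteriors differed between the strains. There 1 nucleotide was modified in the mutant and 11 in the depleted strain, while the mean normalized reactivities were 0.181 and 0.176. A1896 was modified in both strains, at 0.733 in the mutant and 0.475 in the depleted strain. The other 10 (A1881, A1891, A1895, A1901, C1904, G1905, G1906, C1907, A1908 and U1912) were modified in the depleted strain alone, and 7 of them lie in hairpin 1. Among these, G1905 was at 0.166 in the mutant and 0.536 in the depleted strain, and U1912 at 0.222 and 0.686. The direction was mixed, and A1881, A1891, A1895, A1901 and G1906 had the higher normalized value in the mutant, where they were not modified. In raw scores A1895 (0.106 in the mutant and 0.110 in the depleted strain) and G1906 (0.0596 and 0.0641) were lower in the mutant. A1881, A1891 and A1901 were higher there in raw scores too. A1901 was at 0.579 in the mutant and 0.482 in the depleted strain, with nearly equal raw scores of 0.1110 and 0.1107. With the filtered rule described next 0 of the 32 were called, and without its filter 3 were called higher in the mutant.

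Differences between the strains were taken between raw scores smoothed over 3 nt, mutant minus Erb1-depleted, and expressed in SDs of this difference along the whole transcript. A nucleotide was called where this standardized difference reached at least 1 SD, the Z-factor was above 0 and at least 3 nucleotides in a window of 5 nt did so. As in the authors' deposited table, a call was then kept where the nucleotide was modified in at least 1 strain. With that filter 1 of 517 nucleotides was called higher in the mutant (0.193%), beside 0.81% over the transcript. Higher in the depleted strain were 23 (4.45%), where 5.15% were called over the transcript. The second share is close to that of the transcript, and the first rests on 1 call. Without the filter on modification the domain had 100 calls higher in the mutant (19.3%, beside 13.7% over the transcript) and 34 higher in the depleted strain (6.58%, beside 11.4%).

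The calls without the filter were concentrated in the unmarked stretch. It held 88 of the 100 nucleotides called higher in the mutant and 6 of the 34 called higher in the depleted strain. That 87 of the 88 were modified in neither strain follows from how the stretch was chosen. Of the 88, 49 had a normalized reactivity above 0 in the mutant and 7 in the depleted strain. The remainder had negative raw scores in the mutant, so their difference lies between scores that the normalized values show as 0. The mean standardized difference was 0.668 in the stretch, 0.0284 in the 32 nucleotides before it and −0.133 after it, and 0.229 over the domain, where 298 nucleotides were above 0 and 219 below. The difference in the stretch is broad. With a running median over 50 nt on either side taken out of the difference, 19 nucleotides of the stretch were called higher in the mutant in place of 88, and its mean was −0.0261.

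**Figure D3:**
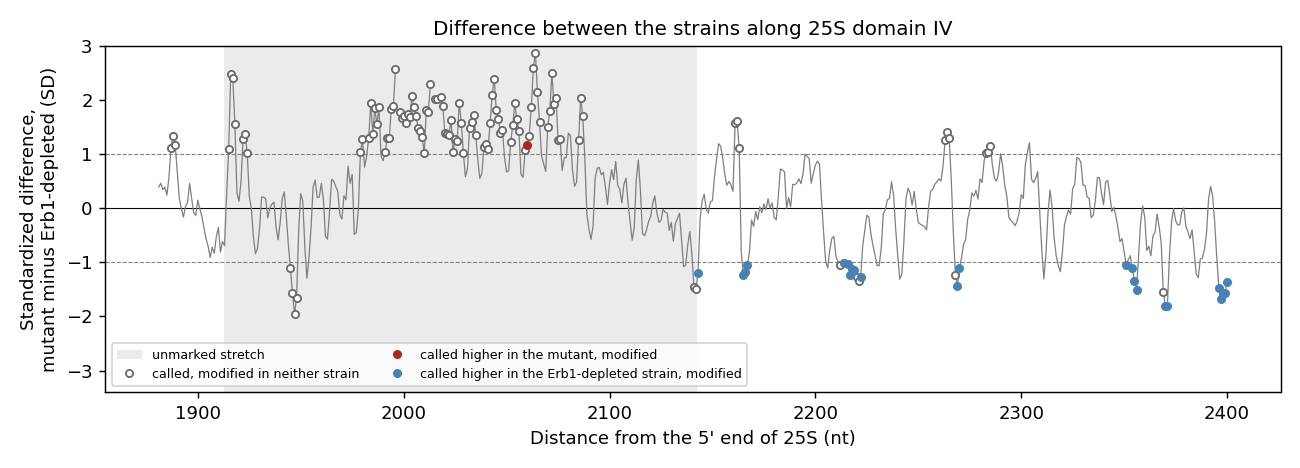
Standardized difference between the strains (mutant minus Erb1-depleted, in SD, vertical axis) along domain IV (distance from the 5′ end of 25S in nt, horizontal axis); open circles were called but modified in neither strain, the red dot is A2060, the blue dots are the 23 nucleotides called higher in the depleted strain, dashed lines are at 1 SD, and grey shading marks 1913 through A2142. Most open circles lie above 1 SD inside the shading. All 23 blue dots lie after it, and none could lie inside, since the stretch was chosen as unmodified except at A2060.

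Hairpin 2 carried most of this difference. Normalized reactivity averaged 0.140 over it in the mutant and 0.0202 in the depleted strain, with 45 of 97 and 83 of 94 nucleotides at 0. Without the filter 64 of its 94 nucleotides with both scores were called higher in the mutant and 0 higher in the depleted strain, and the mean standardized difference was 1.22. At its predicted loop, 2009 to 2012, the mean was 0.417 in the mutant and 0.111 in the depleted strain. The longest run called higher in the mutant, 1998 to 2013 (16 nt), covers this loop. Within it U2001 was at 0.633 and 0 and U2011 at 0.618 and 0.299, in the mutant and the depleted strain. Hairpin 3 next to it had 12 of 15 nucleotides called higher in the mutant without the filter, with a mean standardized difference of 1.73. In neither hairpin was any nucleotide modified in either strain, which follows from their place in the unmarked stretch.

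The domain was also laid out in 13 windows of 40 nt. From 2001 to 2040 normalized reactivity averaged 0.201 in the mutant and 0.0163 in the depleted strain, and 33 of 38 nucleotides had a call toward the mutant without the filter. From 2041 to 2080 the means were 0.162 and 0.0438, with 28 of 40 called. After the stretch every window held modified nucleotides in both strains. They numbered 19 in the mutant and 11 in the depleted strain from 2161 to 2200, 15 and 22 from 2201 to 2240, and 18 and 13 from 2241 to 2280. From 2281 to 2320 they numbered 11 and 10, and from 2321 to 2360, 14 and 13. The last window stood highest in both strains, with 30 (75.0%) and 28 (70.0%) of 40 modified and reactivities that averaged 0.474 in the mutant and 0.573 in the depleted strain.

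**Figure D4:**
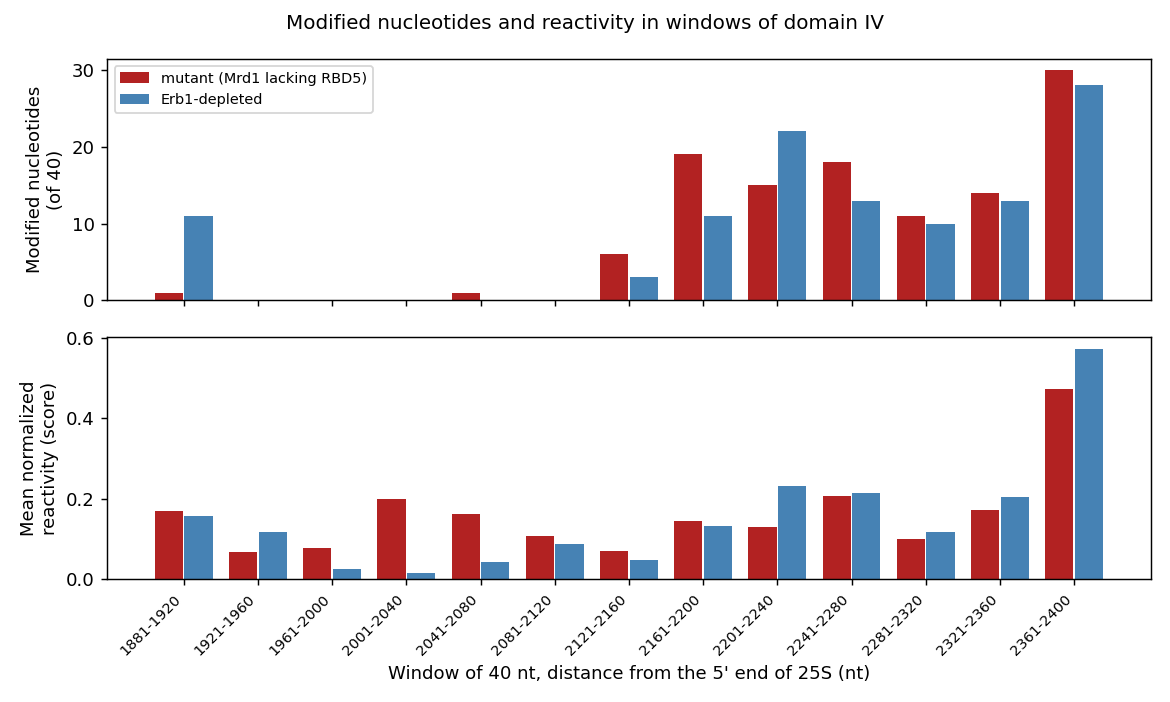
Number of modified nucleotides (of 40, upper panel) and mean normalized reactivity (score, lower panel) in the 13 windows of 40 nt of domain IV, with red bars for the mutant and blue bars for the depleted strain; windows are named by their first and last nucleotide of 25S. From 2001 to 2040 the red bar of reactivity stands at 0.201 and the blue one at 0.0163, and the last window is highest in both panels.

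Between the strains the raw scores of the domain correlated with a Pearson r of 0.809 and a Spearman rho of 0.769 over 517 nucleotides. These are descriptions over neighbouring nucleotides that share libraries and sequence. The r was 0.667 over 227 nucleotides of the unmarked stretch and 0.906 over the 258 after it, beside 0.868 over 6542 nucleotides of the transcript. The stretch was chosen to lack modified nucleotides, and its raw scores spread less. Their SD was 0.086 in the mutant and 0.098 in the depleted strain, beside 0.106 and 0.133 after it. A narrower spread can lower r, so these values are not compared further. Reactivity also differed with the predicted pairing. Of 204 nucleotides predicted as unpaired, 78 were modified in the mutant (38.2%) and 77 in the depleted strain (37.7%), with a mean normalized reactivity of 0.268 in each. Of 316 predicted as paired, 37 (11.7%) and 34 (10.8%) were modified, with means of 0.0906 and 0.0772. The 2 groups also differ in base composition. Adenosines made up 43.1% of the unpaired and 16.1% of the paired nucleotides, and G and C 34.3% and 58.5%. The part of pairing apart from that of base composition was not tested.

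Hairpin 4 is the first with modified nucleotides in both strains, 16 in the mutant and 12 in the depleted strain of 37. Its predicted loop, 2165 to 2169, reads GAAAG in the sequence above with its last 4 letters in capitals. In that loop A2166 was at 0.585 in the mutant and 0.864 in the depleted strain, and A2167 at 0.593 and 0.817. G2165, next to them, was modified in the depleted strain at only 0.0163. G2165 to A2167 were called higher in the depleted strain. U2159 and U2176 had the higher normalized value in the mutant. U2159 was at 1.10 in the mutant and 0.693 in the depleted strain, and U2176 at 1.05 and 0.701. U2176 lies in the UUGA run 2175 to 2178, whose mean standardized difference was 0.058. In that run G2177 went the other way, at 0.0098 in the mutant and 0.198 in the depleted strain. Neither U2159 nor U2176 was called, with standardized differences of 0.43 and −0.02.

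H68 is a long helix near the subunit interface. It had a mean normalized reactivity of 0.149 in the mutant and 0.229 in the depleted strain, with 20 and 25 of 50 nucleotides modified, and 6 were called higher in the depleted strain. In its predicted loop, 2213 to 2220, 3 nucleotides were modified in the mutant and 7 in the depleted strain. The exception in the latter was A2220, a known site of 2′-O-methylation. In this loop A2214 was at 0.581 and 0.743, and A2219 at 0.0509 and 0.269, in the mutant and the depleted strain. A2214, G2216 to A2219 and A2222 were called. A2222, at 0.360 in the mutant and 0.587 in the depleted strain, had a standardized difference of −1.28. The largest value in H68 was that of A2242 at its 3′ end, with 1.15 and 1.37, which was not called.

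H69 here is the predicted hairpin, whose ends need not be those of the helix that forms the intersubunit bridge. In it 12 of 33 nucleotides were modified in the mutant and 8 in the depleted strain, with means of 0.145 and 0.157. Its 5′ side and loop were mostly unreactive. In the loop, 2255 to 2261, A2259 was at 0.895 in the mutant and 0.438 in the depleted strain, modified in both, while its neighbours U2258 and U2260, both known pseudouridines, were at 0 in both. G2261 was modified in the mutant alone, at 0.154 against 0.107. The 3′ side of the predicted hairpin held the run UAAGGU, 2269 to 2274, where all nucleotides were predicted as unpaired. The mean of the run was 0.477 in the mutant and 0.638 in the depleted strain. In this run A2271 was at 1.08 and 1.05, A2270 at 0.831 and 1.07, and U2269 at 0.245 and 0.621. U2269 and A2270 were called higher in the depleted strain, with standardized differences of −1.43 and −1.11.

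H71 had the lowest mean of the named helices in both strains. Its means were 0.0976 in the mutant and 0.0821 in the depleted strain, with 8 and 5 of 30 nucleotides modified and 0 called. In its predicted loop, 2293 to 2299, the same 4 nucleotides were modified in both strains. A2296 was at 0.426 in the mutant and 0.402 in the depleted strain, and U2298 at 0.660 and 0.689. The strains differed little at these loop positions, in contrast to the H68 loop, although the difference of differences was not tested.

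Hairpin 8 and the nucleotides that end the domain held the highest values. In hairpin 8, 34 of 49 nucleotides were modified in the mutant and 32 in the depleted strain, with means of 0.418 and 0.514, and 8 were called higher in the depleted strain. The longest run modified in both strains, AGCGGGGAAAG from 2390 to 2400 (11 nt), had means of 0.635 and 0.749. Its last nucleotide but 1 is A2399, the most reactive nucleotide of the domain in the mutant, at 1.47 in the mutant and 1.57 in the depleted strain. A2386 was the most reactive in the depleted strain, at 1.59, and stood at 1.45 in the mutant. It lies in the run CAGAAU, 2383 to 2388, whose means were 0.845 and 0.9497. A2363 was at 1.45 in the mutant and 1.28 in the depleted strain, but its raw score was lower in the mutant, at 0.279 against 0.294, since the factors of normalization differ between the strains. A2356, in the run CGAAA from 2354 to 2358, was at 1.12 and 1.28.

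Among calls kept by the filter on modification, the largest difference of the domain lay in the predicted loop of hairpin 8. G2370 was at 0.318 in the mutant and 1.10 in the depleted strain, with a standardized difference of −1.80, and G2371 beside it was also called. G2376 and G2377, at the other end of the same loop, were modified in the mutant alone, at 0.275 and 0.361, though the depleted strain gave 0.479 and 0.281 there. At the end of the domain A2397 was at 0.577 in the mutant and 1.02 in the depleted strain, with a standardized difference of −1.69, and G2396 to G2400 were all called. In the window 2361 to 2400 the standardized difference was below 0 at 36 of 40 nucleotides, with a mean of −0.69. The mean stayed below 0 under the 5 other scalings tried, from −0.527 to −0.351.

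Runs of at least 3 nucleotides modified in both strains numbered 12 and held 63 of the 89 shared modified nucleotides. All 12 lie after the unmarked stretch, which by its choice could hold none of them. Beside the runs already named (2175 to 2178, 2269 to 2274, 2354 to 2358, 2383 to 2388 and 2390 to 2400), they are AAAG at 2166 to 2169, CUGAAU at 2204 to 2209, AAC at 2228 to 2230, UAAAC at 2241 to 2245, UGAA at 2310 to 2313, CUG at 2333 to 2335 and GGAACG at 2370 to 2375. Mean reactivity over the runs was lowest at 2204 to 2209, with 0.248 in the mutant and 0.417 in the depleted strain. At 2241 to 2245, from the 3′ end of H68 up to H69, the normalized means were nearly equal, at 0.666 and 0.664. The raw means of this run were 0.128 in the mutant and 0.152 in the depleted strain.

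The 10 most reactive modified nucleotides, taken at most 1 per 5 nt, had 5 members in common between the strains, A2242, A2356, A2363, A2386 and A2399. The mutant's list adds U2159, A2271, U2176, A2060 and A2259. That of the depleted strain adds G2370, A2270, A2232 (0.818 in the mutant and 0.870 in the depleted strain), A2166 and C2204 (0.741 and 0.829). A2270 and A2271 are neighbours that the spacing rule picked separately. In each list 8 of 10 were adenosines. All 10 of the depleted strain were modified in the mutant too, and 9 of the mutant's 10 in the depleted strain, A2060 being the exception. For modified nucleotides the median normalized reactivity stood at 0.388 in the mutant and 0.486 in the depleted strain, below the 0.743 and 0.720 of the whole transcript.

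The 24 filtered calls of the domain fell in 11 runs and took in 12 adenosines, 8 guanosines, 3 uridines and 1 cytidine. Of the domain's adenosines 7.91% were called higher in the depleted strain, beside 9.82% of adenosines in the transcript. For guanosines these shares were 5.37% and 5.00%, for uridines 2.42% and 3.72%, and for cytidines 0.952% and 0.805%. Of the 24 calls, 18 were modified in both strains, 5 in the depleted strain alone and 1, A2060, in the mutant alone. A2060 had a standardized difference of 1.16. The 23 higher in the depleted strain ranged from −1.80 to −1.01. Apart from A2143 they lie in the hairpins and runs described above.

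Residues of mature 25S known to carry a modification give a further reading of the domain. The list holds 23 residues, and all 23 bases fit the deposited sequence. Of these 10 are 2′-O-methylated, a change that occupies the hydroxyl group 1M7 reacts with, 11 are pseudouridines and 2 carry a methyl group on the base. Whether they carry these modifications in the particles probed here was not tested. In the mutant 1 of the 23 was modified in the SHAPE sense and in the depleted strain 2, beside 114 (22.9%) and 109 (21.9%) of the other 497 nucleotides. Raw scores, which have a mean of 0 over the transcript, were below 0 at 21 of the 23 in each strain, with medians of −0.0926 in the mutant and −0.109 in the depleted strain. Of the other nucleotides 255 (51.3%) in the mutant and 295 of 494 (59.7%) in the depleted strain were below 0.

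**Figure D5:**
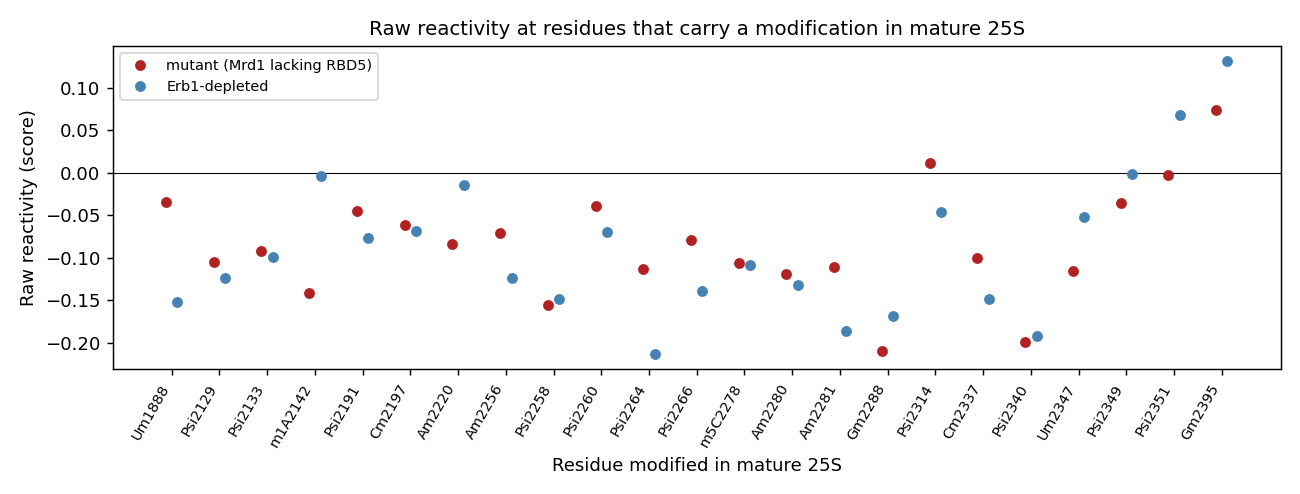
Raw SHAPE reactivity (score, vertical axis) at the 23 residues of domain IV known to be modified in mature 25S, in order along the RNA (horizontal axis), with red dots for the mutant and blue dots for the depleted strain; the line at 0 is the mean over the transcript. In each strain 21 of 23 dots lie below the line, and Gm2395 is highest in both.

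Among the 2′-O-methylated residues, 9 of 10 were below 0 in each strain. These are Um1888, Cm2197, Am2220, Am2256, Am2280, Am2281, Gm2288, Cm2337 and Um2347. The exception was Gm2395, with a normalized reactivity of 0.384 in the mutant and 0.575 in the depleted strain, modified in both and inside the longest run of modified nucleotides. Of the pseudouridines, Psi2129, Psi2133, Psi2191, Psi2258, Psi2260, Psi2264, Psi2266, Psi2340 and Psi2349 were below 0 in both strains. Psi2314 was slightly above 0 in the mutant alone, with a raw score of 0.0110. Psi2351 was at a normalized reactivity of 0 in the mutant and 0.296 in the depleted strain, where it was modified, and was called with a standardized difference of −1.05.

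Both base-methylated residues, m1A2142 and m5C2278, had raw scores below 0 in both strains. m1A2142 closes the unmarked stretch, with −0.141 in the mutant and −0.00340 in the depleted strain and a standardized difference of −1.50. A2143, just 3′ of it, was modified in both strains, at 0.0997 in the mutant and 0.3003 in the depleted strain, and was called higher in the latter. m5C2278, at the 3′ end of the predicted hairpin named H69, had −0.106 and −0.109.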

How the data were processed

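SHAPE was read from 1 deposited sheet with a line for each nucleotide of the 35S pre-rRNA. Per the file headers, the deposited values are scores in 1 column for each strain, which pools its libraries. The authors give raw and normalized reactivity scores, BUM_HMM posteriors (a fraction from 0 to 1), and the columns of a deltaSHAPE comparison (smoothed scores, Z-factor, standardized difference). Nucleotides marked there as lacking coverage were dropped. The labels' protocols name random hexamers, SuperScript III and CircLigase II. The submitters' processing notes name Novoalign for alignment. Its version, the way raw scores were computed and the controls behind those of the depleted strain are not stated in the sources used here.

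The values show that a normalized score equals the raw score multiplied by a factor, 5.21 in the mutant and 4.35 in the depleted strain, with negatives set to 0. Differences were therefore taken between raw scores, and 1 SD of the smoothed difference was 0.0649. The calling rule was inferred from the deposited columns. It yielded 1646 calls over the transcript, with 0 differing from the authors' deposited table, and 390 after the filter on modified nucleotides, again with 0 differing. In the domain 7 nucleotides had a Z-factor of 0 or less. The rule was also run on simulated independent noise with added shifts, where every Z-factor passed. That run checks the code of the rule and not the calls reported here, because the real differences are broad.

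No test was planned, since the sheet has no replicates. Members and lists were chosen with earlier results of these data known. The nucleotides named by rule are the 10 most reactive modified ones per strain and the 5 largest called differences in each direction (at most 1 per 5 nt), of which the mutant's direction had 1, runs of at least 3 nucleotides modified in both strains, the 3 longest runs with none, and residues modified in mature 25S. Other nucleotides, the unmarked stretch and the 32 before it were singled out after their values were seen. Alternatives were other posterior thresholds, scalings, smoothing, SD thresholds and filters. Python 3.11.15, pandas 2.3.3, NumPy 2.4.6, SciPy 1.17.1 and RNAfold 2.7.2 were used.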

Additional observations from a re-analysis of the deposited data

How the results depend on the processing

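The number of modified nucleotides was 116 and 108 in the mutant at posteriors of at least 0.9 and 0.99, and 115 and 107 in the depleted strain. The single call higher in the mutant became 0 at a posterior of 0.99, with the running median taken out, at 2 SD or with modification required in both strains, 2 without smoothing, 3 on normalized scores with negatives at 0, and 100 without the filter on modification. The 23 calls higher in the depleted strain became 13 with raw scores brought to equal SD, 40 with the running median taken out and 0 at 2 SD, and ranged from 16 to 34 under the others. Of the 24 calls, 14 were still called in the same direction with each strain's own factor, 10 at equal SD, 13 after quantile normalization, 16 on normalized scores and 19 with the running median taken out, and 0 in the opposite direction. The mean standardized difference of the domain, 0.229, was 0.193, 0.190, 0.199, 0.0465 and −0.0637 in that order of scalings. With negatives kept, normalized reactivity averaged −0.0612 in the mutant and −0.116 in the depleted strain. The mutant had the higher mean either way, while the level and the size of its lead depend on where 0 is set. With the running median taken out, A2060 had −0.0195.

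For the unmarked stretch and the last window these scalings were chosen after seeing the data. The mean of the stretch was 0.604, 0.597, 0.603, 0.312 and −0.0261, and the calls higher in the mutant without the filter numbered 88, 88, 89, 36 and 19. The last window gave −0.453, −0.432, −0.426, −0.527 and −0.351. The causes were not tested. No paired analysis was possible because the sheet has 1 value per nucleotide and strain. The unknown depth limits every value.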

Other observations

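The nucleotides next to the 23 listed residues, themselves not listed, were modified more often in the mutant on the 3′ side, with 10 of 22, than on the 5′ side, with 5 of 22. In the depleted strain these counts were 6 and 5 of 22. Over the whole domain 22.1% of nucleotides were modified in the mutant and 21.3% in the depleted strain. The sides are not separate sets, because a nucleotide between 2 listed residues counts on both. Among those modified in the mutant, A2259, A2279 and A2348 do so. Of the 113 uridines of the domain that are not listed as modified, 56 in the mutant (49.6%) and 77 of 111 in the depleted strain (69.4%) had raw scores below 0, beside 10 of 11 pseudouridines in each strain. These counts were not tested.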
